A study of Mus musculus with 12 samples.

Results

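The 40 genes described here encode Wnt ligands, R-spondins and their Lgr receptors, Frizzled, Lrp and Ror receptors, extracellular inhibitors, feedback genes and the β-catenin and TCF/LEF proteins of the nucleus. They were selected by symbol from a list drawn up with earlier results of these data known: each Ensembl gene identifier of the deposited tables was matched without its version to a symbol, and 40 of the 53392 gene rows carried a listed symbol. RNA-seq of polyA-selected RNA was carried out on facial mesenchyme of mouse embryos of the 129S4 strain background, with 3 biological replicates in each of 4 groups. At E13.5 the palatal shelves, the paired outgrowths that form the secondary palate, came from Pdgfra+/+ embryos (wild type) and from PdgfraPI3K/PI3K embryos (PI3K), whose receptor for platelet-derived growth factor cannot bind PI3K. At E11.5 the maxillary processes, the earlier outgrowths from which the palatal shelves arise, came from Srsf3fl/fl;Wnt1-Cre+/+ embryos (Control) and from Srsf3fl/fl;Wnt1-Cre+/Tg embryos (cKO). Both maxillary groups carried the floxed allele of Srsf3, a splicing factor gene, and the transgene of the cKO group expresses Cre in the neural crest, which does not give rise to endothelium, blood or ectoderm. The ectoderm had been taken off with trypsin in all groups.

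Wnt proteins are secreted ligands that bind Frizzled receptors together with the co-receptors Lrp5 and Lrp6 and so stabilise β-catenin, which enters the nucleus and activates genes through TCF/LEF proteins. Axin2, Lef1, Nkd1, Sp5, Dkk1, Apcdd1, Notum, Rnf43 and Znrf3 are known target genes of the pathway, and most of them restrain it. In the face, Wnt ligands come from ectoderm and mesenchyme, and loss of Wnt5a, Wnt9b, Rspo2 or Lrp6 in mice is known to cause clefts of the lip or palate.

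Estimated counts summed to 30509338 to 37406960 per palatal library and 15932541 to 27887654 per maxillary library. The 7 mesenchyme markers examined had means of at least 1 TPM in all groups (TPM is a transcript level scaled for length and depth). The summed level of 12 ectoderm markers was 694 to 909 TPM in the wild-type palatal libraries and 394 to 925 TPM in the PI3K libraries. It was 1.69 to 8.13 TPM in the Control and 9.89 to 18.6 TPM in the cKO maxillary libraries, and 11 of the 12 markers had a mean under 1 TPM in the Control group. In both palatal groups all 12 had means of at least 1 TPM, so RNA of ectoderm markers was present there after the trypsin step. Srsf3 was at 470.4, 407 and 416 TPM in the Control libraries and 320.4, 441 and 407 TPM in the libraries labelled cKO, which overlapped. A gene total does not show the loss of some exons, so the deletion was not checked by it, and "cKO" below means the libraries labelled so. Pdgfra was at 140, 130.3 and 144 TPM in wild-type and 186, 200.5 and 243 TPM in PI3K libraries, a level that does not check the PI3K allele. Its estimated counts overlapped, at 15352, 16702 and 17045 in wild-type and 13861, 14995 and 21240 in PI3K libraries, so counts and TPM differed for this gene.

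Promoter windows are printed for 6 members on which the results below turn. Lef1, Sp5, Dkk1 and Axin2 were higher in library 3 than in library 1 of both maxillary groups. Wnt11 and Sfrp2 had maxillary levels that did not overlap between genotypes. The 6 members were chosen with their matches known, and for Lef1 and Wnt11 the window with a match is shown. Each window is the gene's strand from 250 bases before to 50 bases after a RefSeq start (build GRCm38.p6). Capitals mark a match to the core letters that TCF/LEF proteins are known to bind, CTTTG followed by 2 bases that are each A or T (CTTTGAA or CTTTGAT or CTTTGTA or CTTTGTT), on either strand. The windows lie at chr3:131156044-131156343 (Lef1, an internal start of the gene, plus strand), chr2:70474673-70474972 (Sp5, plus), chr19:30549447-30549746 (Dkk1, minus), chr7:98834862-98835161 (Wnt11, plus), chr3:83766071-83766370 (Sfrp2, plus) and chr11:108920099-108920398 (Axin2, plus).
Lef1: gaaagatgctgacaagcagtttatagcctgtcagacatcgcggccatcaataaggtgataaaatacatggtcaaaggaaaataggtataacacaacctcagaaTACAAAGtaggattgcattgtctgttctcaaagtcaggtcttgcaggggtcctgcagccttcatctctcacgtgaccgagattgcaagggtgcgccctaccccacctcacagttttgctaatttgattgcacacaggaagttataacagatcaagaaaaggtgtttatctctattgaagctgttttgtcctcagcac
Sp5: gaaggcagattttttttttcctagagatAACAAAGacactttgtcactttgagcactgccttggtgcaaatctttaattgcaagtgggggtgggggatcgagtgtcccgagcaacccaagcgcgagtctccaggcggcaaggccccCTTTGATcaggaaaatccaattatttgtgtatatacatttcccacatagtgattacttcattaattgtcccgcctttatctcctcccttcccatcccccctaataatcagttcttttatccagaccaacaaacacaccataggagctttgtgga
Dkk1: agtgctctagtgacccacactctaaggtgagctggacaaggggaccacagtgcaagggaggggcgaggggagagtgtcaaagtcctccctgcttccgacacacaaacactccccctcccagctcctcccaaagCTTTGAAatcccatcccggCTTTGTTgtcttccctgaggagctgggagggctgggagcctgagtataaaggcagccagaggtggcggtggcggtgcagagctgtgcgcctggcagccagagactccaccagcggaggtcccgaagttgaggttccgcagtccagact
Wnt11: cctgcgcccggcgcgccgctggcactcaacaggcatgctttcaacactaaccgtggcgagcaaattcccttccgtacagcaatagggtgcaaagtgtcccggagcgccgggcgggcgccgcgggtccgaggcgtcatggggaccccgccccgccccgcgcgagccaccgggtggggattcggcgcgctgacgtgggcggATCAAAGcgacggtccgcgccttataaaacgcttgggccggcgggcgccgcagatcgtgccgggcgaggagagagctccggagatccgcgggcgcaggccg
Sfrp2: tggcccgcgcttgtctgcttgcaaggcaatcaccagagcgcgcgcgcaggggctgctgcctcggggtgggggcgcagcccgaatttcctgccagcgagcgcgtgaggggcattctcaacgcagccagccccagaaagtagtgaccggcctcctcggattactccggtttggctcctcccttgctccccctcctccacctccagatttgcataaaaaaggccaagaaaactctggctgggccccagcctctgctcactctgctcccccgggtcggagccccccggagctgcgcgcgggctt
Axin2: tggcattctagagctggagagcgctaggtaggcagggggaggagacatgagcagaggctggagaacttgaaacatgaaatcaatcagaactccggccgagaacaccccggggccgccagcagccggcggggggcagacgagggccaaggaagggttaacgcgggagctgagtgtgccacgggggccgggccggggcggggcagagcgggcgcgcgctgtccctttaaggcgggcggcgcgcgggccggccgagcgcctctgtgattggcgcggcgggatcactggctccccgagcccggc
Sp5 held matches starting 222 and 104 bases before its start, and Dkk1 held them at 117 and 98 bases before. The internal Lef1 window held 1 match, 147 bases before the start, and the other 3 RefSeq windows of Lef1 held none. The printed Wnt11 window held 1 match 51 bases before its start, and the other Wnt11 window held none. The Axin2 and Sfrp2 windows held none of these letters, nor did that of Nkd1, which is not printed. The table had 37 windows for 27 of the 40 members, and 8 windows (21.6%) held a match beside 16.9% of all 32851 windows of this length. A match is a description of the letters, not of binding.

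In the wild-type palatal shelf the highest member was Sfrp2, which encodes a secreted protein that binds Wnt ligands, at 1172 ± 170.0 TPM (mean ± SD, n = 3, as throughout). Ctnnb1, the gene of β-catenin, followed at 775 ± 65.5 TPM. Well below came Fzd2 at 171 ± 17.0, Tcf7l1 at 116 ± 0.501 and Apcdd1 at 111 ± 17.8 TPM, and the last 2 did not differ beyond their spread. In the Control maxillary process the order was another: Ctnnb1 led at 749 ± 63.7 TPM, then Lef1 at 394 ± 253 and Apcdd1 at 236 ± 103 TPM, whose ranges overlapped. Fzd2, Wnt5a, Sfrp2, Axin2 and Nkd1 came next, with means between 128 and 159 TPM, and each overlapped its neighbour in that order. Wnt3 and Wnt9b were the lowest members of the wild-type palatal shelf and had means under 1 TPM in all 4 groups, and in the Control maxillary process Wnt16 was the lowest at 0.0703 ± 0.122 TPM.

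**Figure D1:**
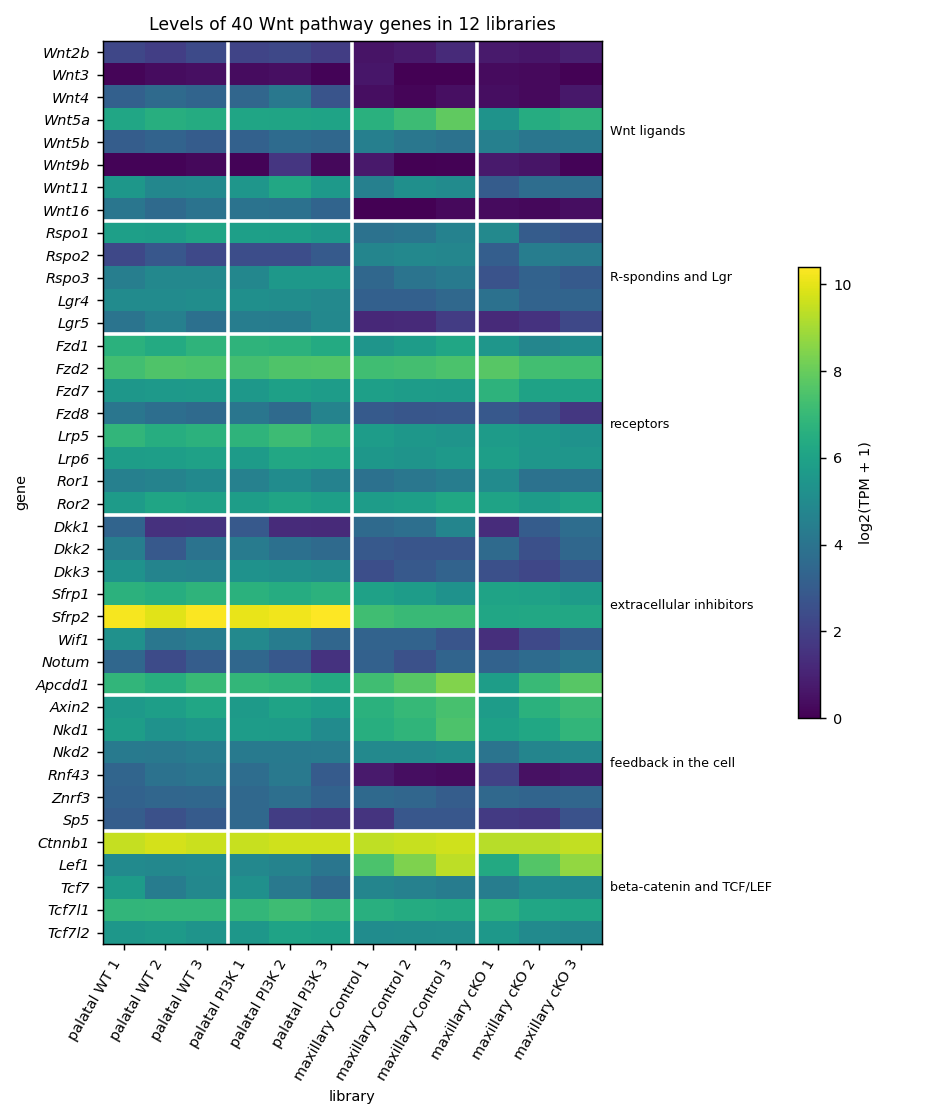
Heat map of the level of each of the 40 genes (rows, by role) in each of the 12 libraries (columns, 3 per group), as log2(TPM + 1). Sfrp2 and Ctnnb1 are the brightest rows in the palatal libraries, Lef1 is bright in the maxillary libraries only, and Wnt4, Wnt16, Rnf43 and Lgr5 are dark there.

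The wild-type palatal shelf at E13.5 and the Control maxillary process at E11.5 were compared to describe how the levels of these genes differ between the 2 tissues in embryos without Cre. Of the 39 members tested, 28 differed at a false discovery rate (FDR) of 0.05 by the edgeR quasi-likelihood test adjusted over all genes, beside 50.6% of all 15752 genes tested. Of these, 18 were higher in the palatal shelf (27.1% of all genes) and 10 were lower (23.4%). The groups did not overlap in normalised counts in 28 members, beside 62.1% of all genes. The median log2 fold change of the members was 0.30, and that of all genes 0.03. Sfrp2, Lgr5, Rnf43, Wnt4 and Wnt16 were higher in the palatal shelf, whereas Lef1, Rspo2, Nkd1 and Axin2 were higher in the maxillary process. Tissue, stage, the floxed Srsf3 allele, sequencing lane and the deposited table go together here and cannot be told apart. The ectoderm marker sums above also separated the groups, and so did those of 5 other marker lists. In the wild-type palatal and Control maxillary libraries the 7 mesenchyme markers summed to 3771 to 5134 and 2272 to 3191 TPM, the 7 endothelial markers to 217 to 243 and 157 to 166 TPM, and the 6 macrophage markers to 29.6 to 82.7 and 19.3 to 23.2 TPM. The 8 neural and glial markers summed to 32.4 to 41.6 and 51.9 to 170.0 TPM, and the 7 blood markers to 3448 to 7616 and 9577 to 16910 TPM. The muscle sums overlapped. The part of these cells in the differences was not tested, and in bulk tissue fewer cells of a type and less RNA per cell cannot be told apart.

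Among the ligands, 5 of the 7 tested differed, 3 higher and 2 lower in the palatal shelf. Wnt16 was at 15.9, 11.2 and 14.4 TPM in the wild-type palatal libraries and 0, 0 and 0.211 TPM in the Control maxillary libraries. Wnt4, which is known for roles in kidney and reproductive tract epithelia, was at 8.17, 11.0 and 9.14 TPM against 0.323, 0.0920 and 0.326 TPM. For both genes every palatal library stood above every maxillary library, and the maxillary values were under 1 TPM. The summed estimated counts were 1145 against 4 for Wnt16, a ratio relative to library totals of 157 (95% interval for counting error 61.3 to 578), and 2236 against 34 for Wnt4, a ratio of 36.1 (25.8 to 52.3). The fitted log2 fold changes were 7.16 ± 0.60 (± standard error, adjusted p = 0.000181, edgeR) and 5.08 ± 0.34 (adjusted p = 6.76e-05), and the former, which depends on so few counts, was 11.23 without Control library 3. PI3K libraries were at 12.6 ± 2.88 TPM for Wnt16 and 10.7 ± 5.72 TPM for Wnt4, and cKO libraries at 0.226 ± 0.0713 and 0.370 ± 0.198 TPM.

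Wnt2b, a ligand of the β-catenin route, was at 3.69, 2.85 and 4.08 TPM in the wild-type palatal and 0.477, 0.679 and 1.38 TPM in the Control maxillary libraries, without overlap (log2 fold change 1.90 ± 0.37, adjusted p = 0.00433, edgeR). Wnt5a and Wnt5b, close relatives that signal mainly without β-catenin, went the other way. Wnt5a was at 71.0, 90.1 and 84.6 TPM against 96.9, 139 and 235 TPM. The lowest maxillary library stood only just above the highest palatal one, and the log2 fold change was -1.04 ± 0.25 (adjusted p = 0.0112). Wnt5b was at 7.42, 9.01 and 7.09 TPM against 21.8, 16.6 and 14.3 TPM, again without overlap (-1.32 ± 0.21, adjusted p = 0.00194). PI3K libraries were at 3.30 ± 0.536 TPM for Wnt2b, 66.6 ± 1.42 for Wnt5a and 10.1 ± 1.55 for Wnt5b, and cKO libraries at 0.698 ± 0.168, 77.3 ± 33.9 and 18.4 ± 3.34 TPM. Wnt11, another ligand known mainly for β-catenin-independent signalling, did not pass the test, at 33.9 ± 9.56 TPM in the wild-type palatal and 29.7 ± 6.59 TPM in the Control maxillary group. Wnt3 was at 0.237 ± 0.112 and 0.193 ± 0.311 TPM and Wnt9b, which did not pass the filter on low counts, at 0.102 ± 0.0434 and 0.226 ± 0.361 TPM. Wnt3 and Wnt9b are ligands known from facial ectoderm, and at these levels a difference was not detectable.

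**Figure D2:**
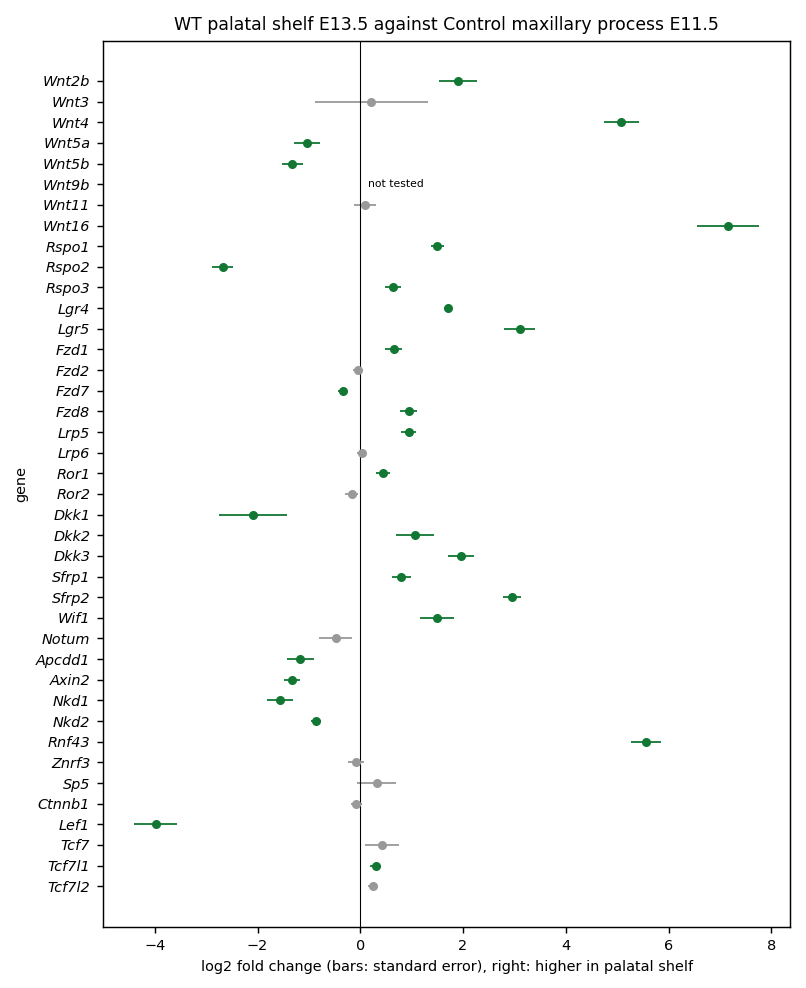
Log2 fold change of each member between the wild-type palatal shelf at E13.5 and the Control maxillary process at E11.5 (3 libraries each, x axis, right means higher in the palatal shelf), with bars for the standard error. Green points passed an FDR of 0.05 and grey points did not; Wnt16, Rnf43 and Wnt4 lie farthest right and Lef1 farthest left.

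R-spondins are secreted agonists that bind Lgr receptors and lower the activity of the ubiquitin ligases Rnf43 and Znrf3, which otherwise remove Frizzled receptors from the cell surface. All 5 members of this role differed. Rspo1 was at 57.1, 54.0 and 65.7 TPM in the wild-type palatal libraries and 14.0, 15.6 and 23.8 TPM in the Control maxillary libraries (log2 fold change 1.5 ± 0.12, adjusted p = 0.000160, edgeR). Rspo2 was the reverse, at 3.78, 6.19 and 3.86 TPM against 25.6, 28.1 and 26.6 TPM (-2.68 ± 0.20, adjusted p = 0.000114). So Rspo1 was the most abundant R-spondin of the wild-type palatal libraries and Rspo2 of the Control maxillary libraries, in each library of these 2 groups. Rspo3 was at 20.8, 27.7 and 27.8 TPM against 10.2, 15.1 and 17.8 TPM (0.64 ± 0.16, adjusted p = 0.0127), a smaller difference that no longer passed without wild-type library 3 (0.60, adjusted p = 0.0524). The receptor Lgr4 was at 31.6, 31.4 and 33.3 TPM against 8.24, 8.27 and 10.6 TPM (1.71 ± 0.08, adjusted p = 1.82e-05). Its relative Lgr5, known as a marker of stem cells in several epithelia, was at 14.9, 22.0 and 13.4 TPM against 1.27, 1.39 and 2.57 TPM (3.10 ± 0.30, adjusted p = 0.000309). Both receptors were higher in all 3 palatal libraries than in any maxillary library. In PI3K and cKO libraries Rspo1 was at 53.3 ± 6.68 and 14.1 ± 13.2 TPM, Rspo2 at 5.26 ± 1.31 and 15.8 ± 6.96, Rspo3 at 39.6 ± 10.5 and 6.90 ± 1.68, Lgr4 at 32.8 ± 3.22 and 10.7 ± 2.66, and Lgr5 at 22.7 ± 4.79 and 2.33 ± 1.22 TPM.

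The receptors differed less. Of 8 tested, 4 were higher and 1 was lower in the palatal shelf, all within 1 log2 unit. The co-receptor Lrp5 was at 115, 89.5 and 103 TPM in the wild-type palatal and 52.9, 44.9 and 41.2 TPM in the Control maxillary libraries (0.94 ± 0.15, adjusted p = 0.00205, edgeR). The other co-receptor, Lrp6, was at 57.7 ± 3.95 and 44.9 ± 4.28 TPM and did not pass. The Lrp6 groups did not overlap in TPM, but normalised counts averaged 236 ± 11.7 and 231 ± 15.1 CPM (counts scaled by library totals). Fzd1 was at 99.4, 81.0 and 108 TPM against 42.7, 53.5 and 70.3 TPM (0.65 ± 0.16, adjusted p = 0.0134), and it lost the threshold without wild-type library 3 (0.57, adjusted p = 0.0536) or Control library 2 (0.62, adjusted p = 0.0579). Fzd8 was at 15.99, 12.7 and 11.2 TPM against 6.75, 5.88 and 6.05 TPM (0.94 ± 0.17, adjusted p = 0.00346). All palatal libraries exceeded all maxillary ones for Lrp5, Fzd1 and Fzd8. Fzd7 was at 45.1, 47.7 and 50.5 TPM against 57.2, 53.2 and 51.9 TPM (-0.34 ± 0.09, adjusted p = 0.0175), a narrow gap in the other direction that did not pass without wild-type library 1 (-0.29, adjusted p = 0.0580) or with TPM in place of counts. Fzd2, the most abundant of the Frizzled genes here, was at 171 ± 17.0 and 159 ± 14 TPM and did not pass. Ror1 and Ror2 encode tyrosine kinases through which Wnt5a is known to signal. Ror1 was at 22.4, 24.6 and 30.0 TPM against 13.6, 16.6 and 20.6 TPM (0.44 ± 0.14, adjusted p = 0.0332) and lost the threshold without wild-type library 2 or 3 or Control library 1 or 2 (0.31 to 0.49), and Ror2 was at 60.6 ± 8.82 and 61.2 ± 10.0 TPM and did not pass. In PI3K and cKO libraries Lrp5 was at 118 ± 20.5 and 44.6 ± 6.59 TPM, Lrp6 at 65.3 ± 11.68 and 47.6 ± 7.69, Fzd1 at 97.3 ± 14.3 and 34.0 ± 8.27, and Fzd2 at 178 ± 16.6 and 169 ± 31.3 TPM. Fzd7 was at 53.0 ± 7.15 and 77.2 ± 24.4, Fzd8 at 17.1 ± 6.58 and 4.37 ± 2.02, Ror1 at 26.4 ± 5.56 and 20.2 ± 9.80, and Ror2 at 59.5 ± 5.81 and 60.7 ± 7.48 TPM.

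Of the 8 extracellular inhibitors, 5 were higher and 2 lower in the palatal shelf. Sfrp2 stood at 1244, 978 and 1295 TPM in the wild-type palatal libraries and 146, 131 and 131 TPM in the Control maxillary libraries, a ratio of means of 8.63 (log2 fold change 2.95 ± 0.17, adjusted p = 4.07e-05, edgeR). Sfrp1, which also binds Wnt ligands, was at 102, 88.3 and 108 TPM against 61.2, 53.2 and 38.9 TPM (0.80 ± 0.19, adjusted p = 0.0112). Sfrp1 was the more abundant of the pair in no library of either group. Dkk3, a divergent member of the Dickkopf family, was at 38.2, 25.0 and 23.4 TPM against 4.62, 6.44 and 9.05 TPM (1.96 ± 0.26, adjusted p = 0.00105). Wif1, a secreted protein that binds Wnt ligands, was at 37.2, 16.6 and 20.1 TPM against 8.83, 8.999 and 5.80 TPM (1.5 ± 0.33, adjusted p = 0.00786). None of these 4 genes overlapped between the groups. Dkk2 was at 20.8, 6.60 and 14.5 TPM against 6.45, 5.70 and 5.73 TPM, which came close to touching in TPM and overlapped in normalised counts (1.07 ± 0.37, adjusted p = 0.0439), and it passed with all 6 libraries or without wild-type library 2 but not without any of the other 5 (0.67 to 1.14).

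Dkk1, which blocks Lrp5 and Lrp6, was 1 of the 2 inhibitors lower in the palatal shelf, at 9.25, 1.79 and 1.90 TPM in the wild-type palatal and 11.1, 13.1 and 25.8 TPM in the Control maxillary libraries. Wild-type library 1 stood close to the lowest maxillary library and far above the other two (-2.08 ± 0.66, adjusted p = 0.0320, edgeR). The log2 fold change was -3.30 without that library, and the threshold was lost without wild-type library 2 (-1.70) or 3 (-1.71) or Control library 2 (-2.22) or 3 (-1.70). The other was Apcdd1, a membrane glycoprotein that inhibits Wnt signalling at the cell surface, at 113, 92.1 and 128 TPM against 148, 210.5 and 349 TPM (-1.17 ± 0.26, adjusted p = 0.00811), without overlap. Notum, an enzyme that removes the lipid from Wnt ligands, was at 7.26 ± 2.95 and 7.55 ± 2.30 TPM and did not pass. In PI3K and cKO libraries Sfrp1 was at 95.7 ± 7.87 and 59.2 ± 6.48 TPM, Sfrp2 at 1197 ± 147 and 73.3 ± 2.54, Dkk1 at 3.08 ± 2.91 and 6.91 ± 5.33, and Dkk2 at 14.7 ± 4.21 and 8.78 ± 3.43 TPM. Dkk3 was at 34.8 ± 3.56 and 4.86 ± 1.25, Wif1 at 19.3 ± 9.54 and 4.24 ± 2.75, Notum at 6.14 ± 4.21 and 11.8 ± 3.39, and Apcdd1 at 101 ± 19.0 and 132 ± 76.9 TPM.

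The feedback genes that act in the responding cell did not share a direction: of 6 tested, Axin2, Nkd1 and Nkd2 were lower in the palatal shelf and Rnf43 was higher. Axin2, a scaffold of the complex that destroys β-catenin and a widely used readout of the pathway, was at 47.9, 56.1 and 70.7 TPM in the wild-type palatal and 98.3, 126 and 165 TPM in the Control maxillary libraries (-1.33 ± 0.15, adjusted p = 0.000518, edgeR). Nkd1, which binds Dishevelled, was at 54.1, 38.5 and 45.1 TPM against 90.5, 113 and 180.3 TPM (-1.56 ± 0.25, adjusted p = 0.00210). Its relative Nkd2 was at 17.9, 17.2 and 20.4 TPM against 28.8, 29.1 and 33.6 TPM (-0.86 ± 0.09, adjusted p = 0.000432). All Control libraries were above all wild-type palatal libraries for the 3 genes. Rnf43 was at 9.46, 14.1 and 16.02 TPM against 0.698, 0.299 and 0.244 TPM, with summed estimated counts of 2675 and 29 and a ratio relative to library totals of 50.7 (35.2 to 75.8). Its fitted log2 fold change was 5.56 ± 0.29 (adjusted p = 2.83e-05). Znrf3, the other ubiquitin ligase of this kind, was at 9.51 ± 0.779 and 9.37 ± 1.75 TPM, and Sp5, a transcription factor, at 6.45 ± 1.30 and 4.69 ± 2.34 TPM, and neither passed. In PI3K and cKO libraries Axin2 was at 56.0 ± 7.31 and 96.7 ± 41.8 TPM, Nkd1 at 44.95 ± 11.97 and 82.1 ± 27.6, and Nkd2 at 18.5 ± 0.619 and 22.7 ± 6.42 TPM. Rnf43 was at 12.3 ± 5.33 and 1.35 ± 1.53, Znrf3 at 10.7 ± 2.05 and 9.83 ± 0.640, and Sp5 at 5.10 ± 4.51 and 3.31 ± 1.67 TPM.

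In the nucleus, Lef1 (ENSMUSG00000027985.14, chr3:131110471-131224356, plus strand, GRCm38) differed most. It was at 30.7, 27.9 and 30.5 TPM in the wild-type palatal libraries and 175, 336 and 670.5 TPM in the Control maxillary libraries, a ratio of means of 13.3 (log2 fold change -3.98 ± 0.42, adjusted p = 0.000410, edgeR). The wild-type libraries lay within a few TPM of each other, whereas the Control libraries spread widely above them. Ctnnb1 was at 775 ± 65.5 and 749 ± 63.7 TPM and did not pass, and the same held for Tcf7 at 33.2 ± 16.4 and 22.7 ± 2.86 TPM. Tcf7l1, known mainly as a repressor among the TCF proteins, was at 116, 117 and 116 TPM against 94.4, 83.4 and 79.1 TPM (0.30 ± 0.11, adjusted p = 0.0471). That call was lost without any library except Control library 1 (0.18 to 0.32). Tcf7l2 was at 44.8, 49.4 and 40.7 TPM against 32.1, 33.7 and 34.7 TPM, and its 0.24 ± 0.09 just missed the threshold (adjusted p = 0.0507; 0.32 with adjusted p = 0.0417 without wild-type library 3). In PI3K and cKO libraries Lef1 was at 22.5 ± 6.04 and 232 ± 173 TPM, Ctnnb1 at 792 ± 41.7 and 654 ± 48.6, and Tcf7 at 21.8 ± 13.49 and 26.9 ± 5.86 TPM. Tcf7l1 was at 126 ± 15.4 and 79.3 ± 17.0 and Tcf7l2 at 56.2 ± 10.6 and 34.5 ± 9.71 TPM.

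**Figure D3:**
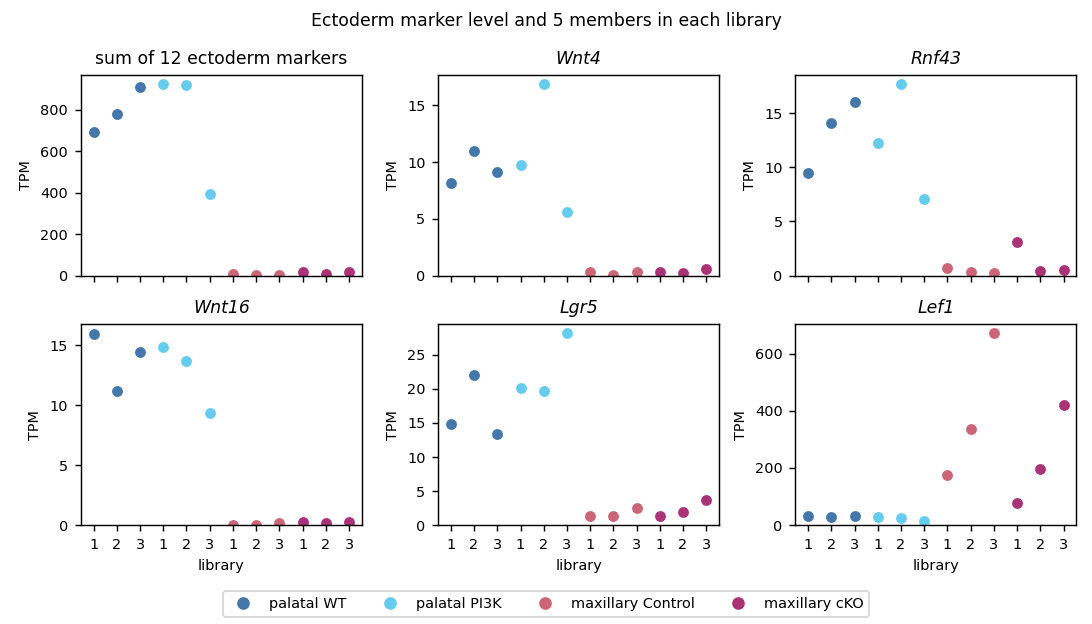
TPM (y axis, linear, each panel with its own scale) of the sum of 12 ectoderm markers and of 5 members in each library (x axis, libraries 1 to 3 of each group by colour). The marker sum, Wnt4, Rnf43, Wnt16 and Lgr5 are high in the 6 palatal libraries and near 0 in the 6 maxillary libraries, and Lef1 is the reverse.

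The ectoderm marker sum was lowest, among palatal libraries, in PI3K library 3 (394 TPM), and this library was also the lowest of the 6 for Wnt4 (5.56 TPM), Wnt16 (9.36 TPM) and Rnf43 (7.05 TPM) but the highest for Lgr5 (28.2 TPM). Over all members, PI3K library 3 was below the other 5 palatal libraries in 16 of 40, beside 12.9% of all genes, a pattern looked for after the values were seen. In TPM this library was at least 1.5 times under the next lowest library in 5 members (Lef1, Notum, Tcf7, Wif1 and Wnt3), beside 2.18% of all genes. It was at least 1.5 times over the next highest in 1 (Fzd8), beside 0.629%. In normalised counts the gap was under 1.5 times for Lef1, at 29.45 CPM against 41.78 CPM in wild-type library 2. The same held for Fzd8, at 43.8 CPM against 30.05 CPM in wild-type library 1. For Wnt3 the value rested on 4 estimated counts. The part of the ectoderm level in these values was not tested.

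The tissue difference was also computed between the other libraries of the same tissues, PI3K against cKO, a comparison chosen after the first was seen that shares no library with it. Of the 28 members that differed, 22 passed the FDR threshold there too with the same direction, and 6 did not: Wnt5a (-0.55), Ror1 (0.16), Dkk1 (-1.39), Dkk2 (0.53), Apcdd1 (-0.52) and Nkd2 (-0.50). All 6 kept their sign. The share of all genes that passed in this second comparison is not given here. The 22 can therefore not be read as particular to the members. Tissue, stage, genotype, sequencing lane and the deposited table go together in this comparison as well. Its palatal libraries carried the PI3K allele of Pdgfra, and its maxillary libraries the floxed Srsf3 allele with the Cre transgene.

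The PI3K and wild-type palatal shelves were compared to ask which genes depend on PI3K binding by the receptor. No member passed an FDR of 0.05 (edgeR, 40 tested; 0% of 16525 genes, and 0 members by DESeq2 or limma as well). At an unadjusted p under 0.05 there were 5 members, beside 2.14% of all genes, and each had an adjusted p of 0.9997. The median log2 fold change was 0.02 over the members and -0.01 over all genes, and 22 members were higher and 18 lower. Axin2 and Sfrp2, which are abundant and well measured, had 95% intervals of -0.33 to 0.28 and -0.28 to 0.32 for the log2 fold change.

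Rspo3 had the smallest p of the comparison among members. It was at 20.8, 27.7 and 27.8 TPM in wild-type and 27.4, 45.5 and 45.9 TPM in PI3K libraries, which overlapped, since PI3K library 1 was below wild-type libraries 2 and 3 (0.62 ± 0.21, unadjusted p = 0.0196, edgeR). Wnt5a was at 71.0, 90.1 and 84.6 TPM against 68.1, 66.3 and 65.3 TPM and was the only member whose groups did not overlap (-0.25 ± 0.09, unadjusted p = 0.0277), beside 6.23% of all genes without overlap. Tcf7l2 was at 44.8, 49.4 and 40.7 TPM against 44.2, 64.4 and 59.9 TPM (0.38 ± 0.14, unadjusted p = 0.0311), with PI3K library 1 among the wild-type values. Wnt11 was at 44.8, 26.9 and 30.0 TPM against 43.6, 74.1 and 47.0 TPM (0.65 ± 0.26, unadjusted p = 0.0386). In TPM, PI3K libraries 2 and 3 lay above every wild-type library, library 3 only just. In normalised counts PI3K library 3 was at 30.2 CPM, below wild-type library 1 at 31.3 CPM. Wnt9b was at 0.0760, 0.0770 and 0.152 TPM against 0.0760, 2.15 and 0.159 TPM, and its 2.97 ± 1.24 (unadjusted p = 0.0461) became 0.21 without PI3K library 2, the only library above 1 TPM.

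The maxillary comparison asked how these genes differ when a Cre active in the neural crest is added to the floxed Srsf3 allele. No member passed an FDR of 0.05 by edgeR (38 tested, Wnt3 and Wnt16 being too low), where 12 of 14254 genes passed (0.0842%). DESeq2 called 3 members and limma on TPM called 1. That count of genes was 6, 2 and 3 without Control library 1, 2 or 3, and 29, 4 and 10 without cKO library 1, 2 or 3. At an unadjusted p under 0.05 there were 6 members, beside 12.2% of all genes, and the groups did not overlap in 7, beside 18.1% of all genes. The median log2 fold change was -0.09 (0.00 over all genes), with 16 members higher and 22 lower. The members with the smallest p, Sfrp2, Wnt11 and Rspo3, were lower in the cKO libraries.

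Sfrp2 (ENSMUSG00000027996.13, chr3:83766321-83774316, plus strand, GRCm38) was at 146, 131 and 131 TPM in the Control and 70.4, 74.7 and 74.9 TPM in the cKO libraries. The 3 values of each group lay close together and the groups were far apart (-0.81 ± 0.12, 95% interval -1.10 to -0.53, unadjusted p = 0.000206, adjusted p = 0.0928, edgeR). It was the 1 member past an FDR of 0.1, beside 0.253% of all genes. The adjusted p was 0.00832 with no filter on low counts, 2.34e-05 with DESeq2, 0.0159 and 0.0146 with limma on TPM and 0.0238 with all 12 libraries in the fit, and it ranged up to 0.343 without Control library 2.

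Wnt11 (ENSMUSG00000015957.12, chr7:98835112-98855195, plus strand) was at 22.4, 35.2 and 31.4 TPM in the Control and 7.27, 12.2 and 12.3 TPM in the cKO libraries, again without overlap (-1.34 ± 0.26, unadjusted p = 0.00106, adjusted p = 0.148, edgeR). It passed with no filter (adjusted p = 0.0243) and with DESeq2 (adjusted p = 0.000112), and its adjusted p ranged up to 0.628 without Control library 2. Rspo3 (ENSMUSG00000019880.10, chr10:29452416-29535867, minus strand) was at 10.2, 15.1 and 17.8 TPM against 5.29, 8.64 and 6.77 TPM (-1.02 ± 0.23, unadjusted p = 0.00239, adjusted p = 0.201) and passed with DESeq2 only (adjusted p = 0.00321; up to 0.712 without Control library 2). Every cKO library was below every Control library for both genes. In the palatal comparison, which shares no library with this one, Wnt11 and Rspo3 had positive log2 fold changes of 0.65 and 0.62, and the difference between the comparisons was not tested.

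Fzd1 was at 42.7, 53.5 and 70.3 TPM in the Control and 43.0, 26.8 and 32.2 TPM in the cKO libraries, with cKO library 1 inside the Control range (-0.65 ± 0.21, unadjusted p = 0.0160, edgeR). Fzd7 was at 57.2, 53.2 and 51.9 TPM against 105, 63.6 and 62.5 TPM (0.56 ± 0.21, unadjusted p = 0.0284), higher in the cKO libraries without overlap, and without the high cKO library 1 the log2 fold change was 0.27. In TPM that library was at least 1.5 times above the other 5 maxillary libraries for Fzd7, Rnf43 and Ror1. These were 3 of the 38 members, beside 5.33% of all genes. For Rnf43 the value rested on 23 estimated counts, and the gap was smaller in CPM (counts scaled by library totals). It was at 1.19 CPM in cKO library 1 and 0.876 CPM in cKO library 3. Notum was at 8.44, 4.93 and 9.27 TPM against 8.65, 11.4 and 15.4 TPM (0.60 ± 0.24, unadjusted p = 0.0352), levels that overlapped in TPM. Dkk1 was at 11.1, 13.1 and 25.8 TPM against 1.49, 7.11 and 12.1 TPM (-1.22 ± 0.63, unadjusted p = 0.0933), with an interval of -2.69 to 0.26 that includes 0. Its log2 fold change was -0.75 without cKO library 1, -0.79 without Control library 3 and -1.85 without cKO library 3. The groups did not overlap in normalised counts for Rspo2 and Lgr4 either, which did not pass at an unadjusted p of 0.05: Rspo2 was at 25.6, 28.1 and 26.6 TPM against 7.74, 20.2 and 19.3 TPM and Lgr4 at 8.24, 8.27 and 10.6 TPM against 13.7, 8.93 and 9.30 TPM.

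Several marker sums moved with the maxillary groups. The 7 endothelial markers summed to 157 to 166 TPM in the Control and 199.7 to 403 TPM in the cKO libraries. The 6 macrophage markers summed to 19.3 to 23.2 TPM and 24.4 to 43.9 TPM, and the 7 muscle markers to 2.19 to 6.81 TPM and 6.97 to 13.7 TPM. The 8 neural and glial markers summed to 51.9 to 170.0 TPM in the Control and 39.1 to 50.5 TPM in the cKO libraries, and the ectoderm sums given above did not overlap either. The mesenchyme sums overlapped, at 2272 to 3191 TPM in the Control and 1851 to 2358 TPM in the cKO libraries. So did the blood sums, at 9577 to 16910 TPM and 10240 to 28630 TPM, highest in cKO library 1. The part of these cells in the values of Sfrp2, Wnt11 and Rspo3 was not tested.

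**Figure D4:**
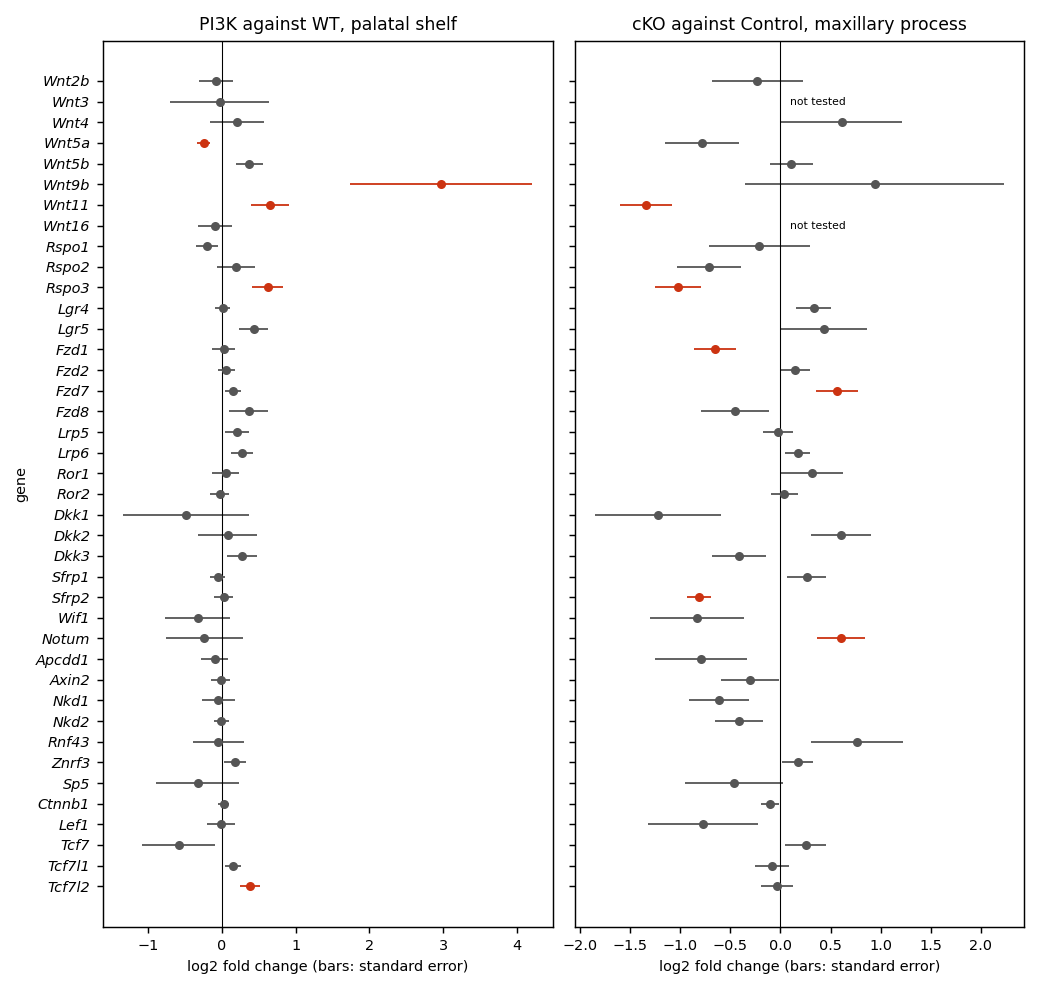
Log2 fold change of each member for PI3K against wild type in the palatal shelf (left) and for cKO against Control in the maxillary process (right), 3 libraries per group, with bars for the standard error and a separate x scale in each panel. Red points have an unadjusted p under 0.05 (5 on the left, 6 on the right), and none passed an FDR of 0.05.

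Several known target genes of the pathway varied widely between libraries of the same maxillary genotype. Lef1 was at 175, 336 and 670.5 TPM in Control libraries 1, 2 and 3 and at 78.5, 197 and 419.7 TPM in cKO libraries 1, 2 and 3. Library 3 exceeded library 1 by 3.83 times in the Control group and 5.34 times in the cKO group, while the Control mean was 1.70 times the cKO mean. For Axin2 the same ratios were 1.68 and 2.57 between libraries and 1.34 between means, and for Dkk1 they were 2.34, 8.16 and 2.41. Replicate numbers have no order, and the labels do not tie a Control library to a cKO library.

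In TPM, library 3 was at least 1.5 times above library 1 in both groups for 8 of the 38 members tested, beside 3.88% of all genes, a pattern chosen after the values were seen. These were Apcdd1, Axin2, Dkk1, Lef1, Lgr5, Nkd1, Sp5 and Wnt5a, of which Lgr5 and Wnt5a are not among the target genes named above. For Axin2 the difference between Control libraries 1 and 3 was under 1.5 times in normalised counts, at 194 and 280 CPM. Nkd1 was at 90.5, 113 and 180.3 TPM in the Control and 60.1, 73.0 and 113 TPM in the cKO libraries, and Apcdd1 at 148, 210.5 and 349 and 55.1, 131 and 209 TPM. Wnt5a was at 96.9, 139 and 235 and 39.5, 87.2 and 105 TPM, so that cKO library 3 lay above Control library 1. Sp5 was at 1.99, 6.03 and 6.04 and 2.43, 2.26 and 5.24 TPM and Lgr5 at 1.27, 1.39 and 2.57 and 1.39, 1.89 and 3.71 TPM. In TPM the reverse pattern held for 2 members, Rnf43 and Wnt9b, beside 2.47% of all genes. For Rnf43 it did not hold in normalised counts, at 0.374 and 0.495 CPM in Control libraries 1 and 3. These values came from only 6 and 11 estimated counts. Ctnnb1 was not part of the pattern of higher levels in library 3, at 685, 748 and 813 and 623, 629.9 and 710.5 TPM. Nor was the target gene Notum, at 8.44, 4.93 and 9.27 and 8.65, 11.4 and 15.4 TPM. The target gene Znrf3 was lower in library 3 than in library 1 of both groups, at 10.9, 9.77 and 7.46 and 10.4, 9.14 and 9.96 TPM. The mesenchyme marker sum was 2272, 2589 and 3191 TPM in Control libraries 1, 2 and 3 and 1851, 2126 and 2358 TPM in cKO libraries 1, 2 and 3, the same order in both groups, and the neural and glial sum was 51.9, 81.5 and 170.0 TPM in the Control libraries but 50.2, 39.1 and 50.5 TPM in the cKO libraries, where it did not follow that order. Their part in the pattern was not tested.

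**Figure D5:**
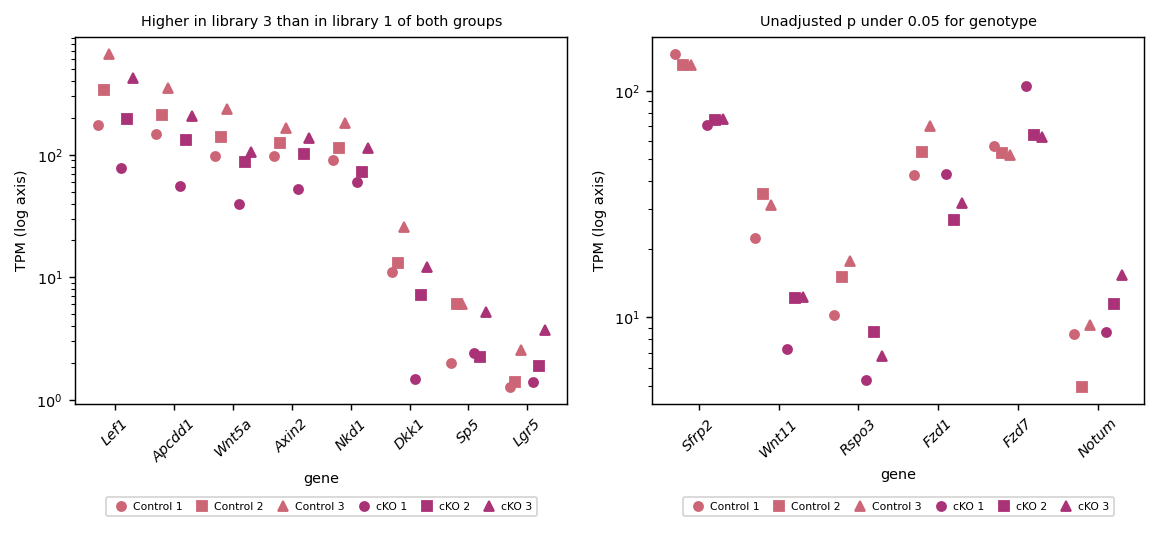
TPM (log axis) of single maxillary libraries for the 8 members higher in library 3 than in library 1 of both groups (left) and for the 6 members with an unadjusted p under 0.05 for genotype (right); colour gives the group and shape the replicate. On the left the triangles stand above the circles in both colours, and on the right Sfrp2, Wnt11 and Rspo3 (lower in cKO) and Fzd7 (higher in cKO) separate by colour.

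The palatal libraries had a pattern of their own, also looked for after the values were seen. Wild-type library 1 and PI3K library 1 were above the other 4 palatal libraries in 9 of 40 members (Dkk1, Dkk2, Dkk3, Nkd1, Notum, Sp5, Tcf7, Wif1 and Wnt16), beside 12.5% of all genes. Tcf7, for example, was at 51.6, 20.0 and 28.1 TPM in wild-type and 36.9, 17.6 and 10.8 TPM in PI3K libraries, and Dkk1 at 9.25, 1.79 and 1.90 and 6.44, 1.43 and 1.38 TPM. The muscle markers were also highest in library 1 of each group, at 55.0 TPM in wild type (1.34 and 1.96 TPM in the others) and 235 TPM in PI3K (31.4 and 128 TPM). So were the mesenchyme sums, at 5134 TPM (3771 and 4222) and 4635 TPM (3963 and 3507). The macrophage sums did the same, at 82.7 TPM (29.6 and 46.0) and 62.6 TPM (33.1 and 40.7). The other marker lists were not highest in library 1 of both groups. The part of these cells was not tested.

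Since the study concerns splicing, the ratio of estimated count to TPM was compared as well: its log2, centred on the median gene of each library, follows the mean length of a gene's transcripts in the library. No member passed an FDR of 0.05 by limma in either genotype comparison. In the palatal comparison 38 members were tested and 3 had an unadjusted p under 0.05, beside 3.89% of all genes and 0.00775% past the FDR threshold. In the maxillary comparison 31 were tested and 3 had an unadjusted p under 0.05, beside 5.13% and 0.00909%.

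Lef1 had the smallest p, at -0.05, 0.10 and 0.06 in the wild-type and 0.39, 0.43 and 0.44 in the PI3K palatal libraries (difference 0.39 ± 0.04, unadjusted p = 0.000205, adjusted p = 0.523, limma). The PI3K libraries all lay above the wild-type libraries on this log2 scale of transcript length. The 2 expression scales differed for Lef1: normalised counts averaged 42.7 ± 1.12 CPM (counts scaled by library totals) for the wild-type group against 42.3 ± 11.46 CPM for the PI3K group, while TPM was 29.7 ± 1.53 and 22.5 ± 6.04. The annotation lists 8 Lef1 transcripts, 4 of them coding with lengths of 2298 to 3482 nucleotides, and which of them differed was not analysed here. The other differences were small: Lrp6 (0.09) and Tcf7l2 (0.06) in the palatal comparison, and Wnt5a (0.21), Tcf7 (-0.04) and Tcf7l2 (-0.11) in the maxillary one.

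A list of 67 further pathway genes (other ligands and their export proteins, receptors, inhibitors, cytoplasmic, nuclear and planar polarity components) was read in the same fits. In the palatal genotype comparison 61 were tested, none passed an FDR of 0.05 and 2 had an unadjusted p under 0.05, beside 2.14% of all genes. In the maxillary one 55 were tested, none passed and 7 had an unadjusted p under 0.05, beside 12.2% of all genes. Between tissues 35 of 61 passed, beside 50.6% of all genes, with 25 higher in the palatal shelf (27.1% of all genes) and 10 lower (23.4%). All 7 other ligands tested were among the higher.

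The 5 further genes with the smallest p between tissues were all higher in the palatal shelf. They were the receptor gene Fzd6 (log2 fold change 4.52 ± 0.19, adjusted p = 1.48e-05, edgeR), Lgr6, a relative of Lgr4 and Lgr5 (5.23 ± 0.32), and 3 planar polarity genes, Celsr1 (3.32 ± 0.20), Celsr2 (2.21 ± 0.21) and Vangl1 (0.98 ± 0.11). Fzd6 was at 7.89, 10.4 and 12.5 TPM in the wild-type palatal and 0.264, 0.403 and 0.355 TPM in the Control maxillary libraries, and Lgr6 at 7.52, 6.46 and 4.84 and 0.0760, 0.128 and 0.412 TPM. Lgr4, Lgr5 and Lgr6 thus all had their higher levels in the palatal libraries.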

How the data were processed

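The deposited tables hold estimated counts and TPM values per gene, which the authors made from the reads. The submitters' processing notes name STAR 2.7.0, Salmon 1.1.0, DESeq2 1.28.1 and the build mm10, and the names of the deposited tables tie the estimated counts and the TPM values to Salmon; other roles are not given in the sources used here. Each table had 53392 gene rows, and 0 columns lacked a sample. Symbols and coordinates came from GENCODE M21 (GRCm38), which matched 53355 identifiers and all 40 members.

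After rounding to whole numbers, the estimated counts of the 6 libraries of a comparison entered a quasi-likelihood F-test in edgeR 4.0.16 (R 4.3.3), with the group as the only term, TMM normalisation and the default filter on low counts. P-values were adjusted by Benjamini-Hochberg across every gene tested. The tissue comparison joined the 2 count tables by gene identifier. Levels were read in TPM. Transcript length was tested with limma 3.58.1 on genes with at least 50 counts in all 6 libraries. Alternatives were DESeq2 1.42.0, limma on log2 TPM values with a pseudocount of 1 or 0.1, other scalings, filters and fits, each library left out, and a replicate block. The 2 genotype comparisons share no library; the tissue comparison shares its wild-type and Control libraries with them.

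The members and gene lists were chosen with earlier results of these data known. All members are named with their levels; fold changes are given where the unadjusted p was under 0.05 or the log2 fold change was at least 1 in size, and at most 5 genes outside the members per comparison are named by smallest p among those past the FDR threshold, except Trabd2b and Apc2, named after their values were seen. The test scripts were tested on simulated data. Library totals of 15932541 to 37406960 counts put 3 counts at 0.0802 to 0.188 CPM (counts scaled by library totals); intervals on counts cover counting error only.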

Additional observations from a re-analysis of the deposited data

How the results depend on the processing

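None of the 643 alternative values of named members changed sign. In the palatal genotype comparison 0 members passed under any alternative, while DESeq2 called 4 genes in all, and the members' median was -0.02 to 0.153 with 1 library left out. In the maxillary genotype comparison members past the threshold numbered 2 with no filter, 3 with DESeq2, 1 with limma at either pseudocount, 1 with all 12 libraries and 1 at an FDR of 0.1, and 0 with any library left out. Over all genes the count there was 12, and 143 with no filter, 382 with DESeq2, 105 with all 12 libraries, 36 at an FDR of 0.1 and 2 to 29 with 1 library left out. Between tissues the members past the threshold numbered 23 to 29 under all alternatives, 18 of the 28 passed in each, and the median of 0.30 was 0.433 and 0.447 with limma, 0.414 for PI3K against cKO and 0.202 to 0.320 with 1 library left out; the causes were not tested.

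The labels do not say whether libraries of the same number were paired. Correlations of same-numbered deviations were 0.53, 0.22 and -0.22 (palatal), 0.08, 0.11 and 0.23 (maxillary) and -0.14, 0.03 and -0.02 (tissue). Those of differently numbered libraries ran from -0.57 to 0.40 (palatal), -0.23 to 0.14 (maxillary) and -0.12 to 0.13 (tissue). With 3 libraries per group these values cannot decide whether libraries were paired. With the replicate block 0, 0 and 26 members passed, with medians of 0.019, -0.097 and 0.321, and 0, 40 and 6835 genes in all; no member passed in transcript length. With 3 libraries per group, small differences in low genes such as Wnt3, Wnt9b and Wnt16 are not detectable.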

Other observations

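Beyond the members, 2 pathway genes of the maxillary comparison stood out after their values were seen, and neither passed an FDR of 0.05. Trabd2b, a membrane protease known to cleave Wnt ligands, was at 0.525, 0.530 and 1.15 TPM in the Control and 9.93, 3.26 and 2.85 TPM in the cKO libraries, which did not overlap (log2 fold change 2.92 ± 0.56, unadjusted p = 0.00105, adjusted p = 0.148, edgeR). Apc2, a relative of the β-catenin scaffold Apc that is known from neurons, was at 1.77, 6.72 and 14.0 TPM against 0.708, 1.66 and 3.48 TPM and overlapped (-2.32 ± 0.69, unadjusted p = 0.0110, adjusted p = 0.296). The highest Apc2 value lay in Control library 3, which also had the highest neural and glial marker sum, and the part of such cells was not tested.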
